A study of Mus musculus with 18 samples.

Results

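The genes described are 10 enzymes that break down tryptophan and tyrosine: Ido1, Afmid, Kynu, Kmo, Haao, Tph1, Ddc, Maoa, Tat and Hgd. They were chosen by name, out of 22180 genes that had a probe set with a single gene symbol in the array's platform annotation, and each of the 10 had 1 such probe set. Whole-transcript gene arrays measured RNA from the ileum of 18 mice, 1 array per mouse, in a model of acute graft-versus-host disease. All mice were B10.BR recipients aged 8 to 12 weeks, lethally irradiated with 11 Gy and given 5000000 T cell depleted marrow cells from C57Bl/6 donors, which are mismatched at the major histocompatibility complex. In the T cell arm the graft also held 2000000 purified donor T cells, and these mice develop the disease. Within each arm, mice were gavaged every day with 150 mg/kg indole-3-carboxaldehyde (ICA, a product of bacterial tryptophan metabolism) or with its vehicle of DMSO, PEG400 and citric acid. Dosing began the day before transplant and ran to collection of the ileum on day 21. There were 4 marrow-only mice on vehicle, 5 marrow-only mice on ICA, 4 T cell mice on vehicle and 5 T cell mice on ICA. Irradiation and transplant were common to all 4 groups, so no comparison includes an untouched ileum.

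Tryptophan that is not built into protein leaves by several routes. Ido1, which interferon gamma induces strongly, opens the indole ring; Afmid releases kynurenine; Kmo, Kynu and Haao carry it on towards quinolinate and NAD. Tph1, the enzyme of enterochromaffin cells and mast cells, starts serotonin synthesis instead, Ddc completes it by decarboxylation, and Maoa oxidises the amine. Tyrosine is broken down by a separate route, in which Tat removes the amino group, Hpd makes homogentisate and Hgd opens its ring; Tat is a classical glucocorticoid-induced enzyme of the liver.

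The values were deposited normalised and were read as log2, and a difference of 1 is then a doubling of signal. The 18 array medians lay between 6.47 and 6.51, and Pearson's r across genes between arrays ran from 0.978 to 0.993. Arrays give no read depth, and their number limits the precision. Ileal enterocyte markers averaged 10.52 to 11.41 per mouse and liver markers 6.50 to 6.88, levels of different probe sets that cannot be set against each other. In the 7 comparisons 0 of 7 liver markers were called. Averaged over the 9 T cell markers measured, the level was 6.72 to 7.87 in marrow-only mice and 7.61 to 8.55 in T cell mice. Marrow-only ICA mouse 1 had the lowest mean correlation with its own group (0.984). It lay outside the range of its 4 group mates for 9 of the 10 enzymes, against 46.3% of all genes. For all genes that share was 30.7% to 58% among mice on ICA. T cell ICA mouse 1 had the highest share and the next lowest mean correlation (0.985). Values without marrow-only ICA mouse 1 are given beside each enzyme and each named pathway gene whose call it decided. Where that mouse lay nearer the compared group than its group mates did, leaving it out had to enlarge the difference. Such a call is not separate support.

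Donor T cells went with lower Tat and higher Maoa, and no other enzyme of the 10 passed the test. Under vehicle 0 enzymes rose (0.794% of all genes did) and 1 fell, Tat (0.681%), with 1.47% of all genes called in either direction. Under ICA 1 rose, Maoa (1.05% of all genes), and 1 fell, Tat (2.07%), with 3.12% called in either direction. In the mean of both arms Maoa again rose (3.58% of all genes) and Tat fell (3.62%), with 7.21% called in either direction. A call means an adjusted p under 0.05 in limma's moderated test over all 22180 genes, and every p below is two-sided. The median size of the difference, sign ignored, was 0.25 over the 10 enzymes and 0.10 over all genes under vehicle, and 0.20 and 0.10 under ICA. At an unadjusted p under 0.05, 4 of the 10 enzymes passed under vehicle (13% of all genes), 4 under ICA (16.6%) and 4 over both arms (19.9%).

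**Figure D1:**
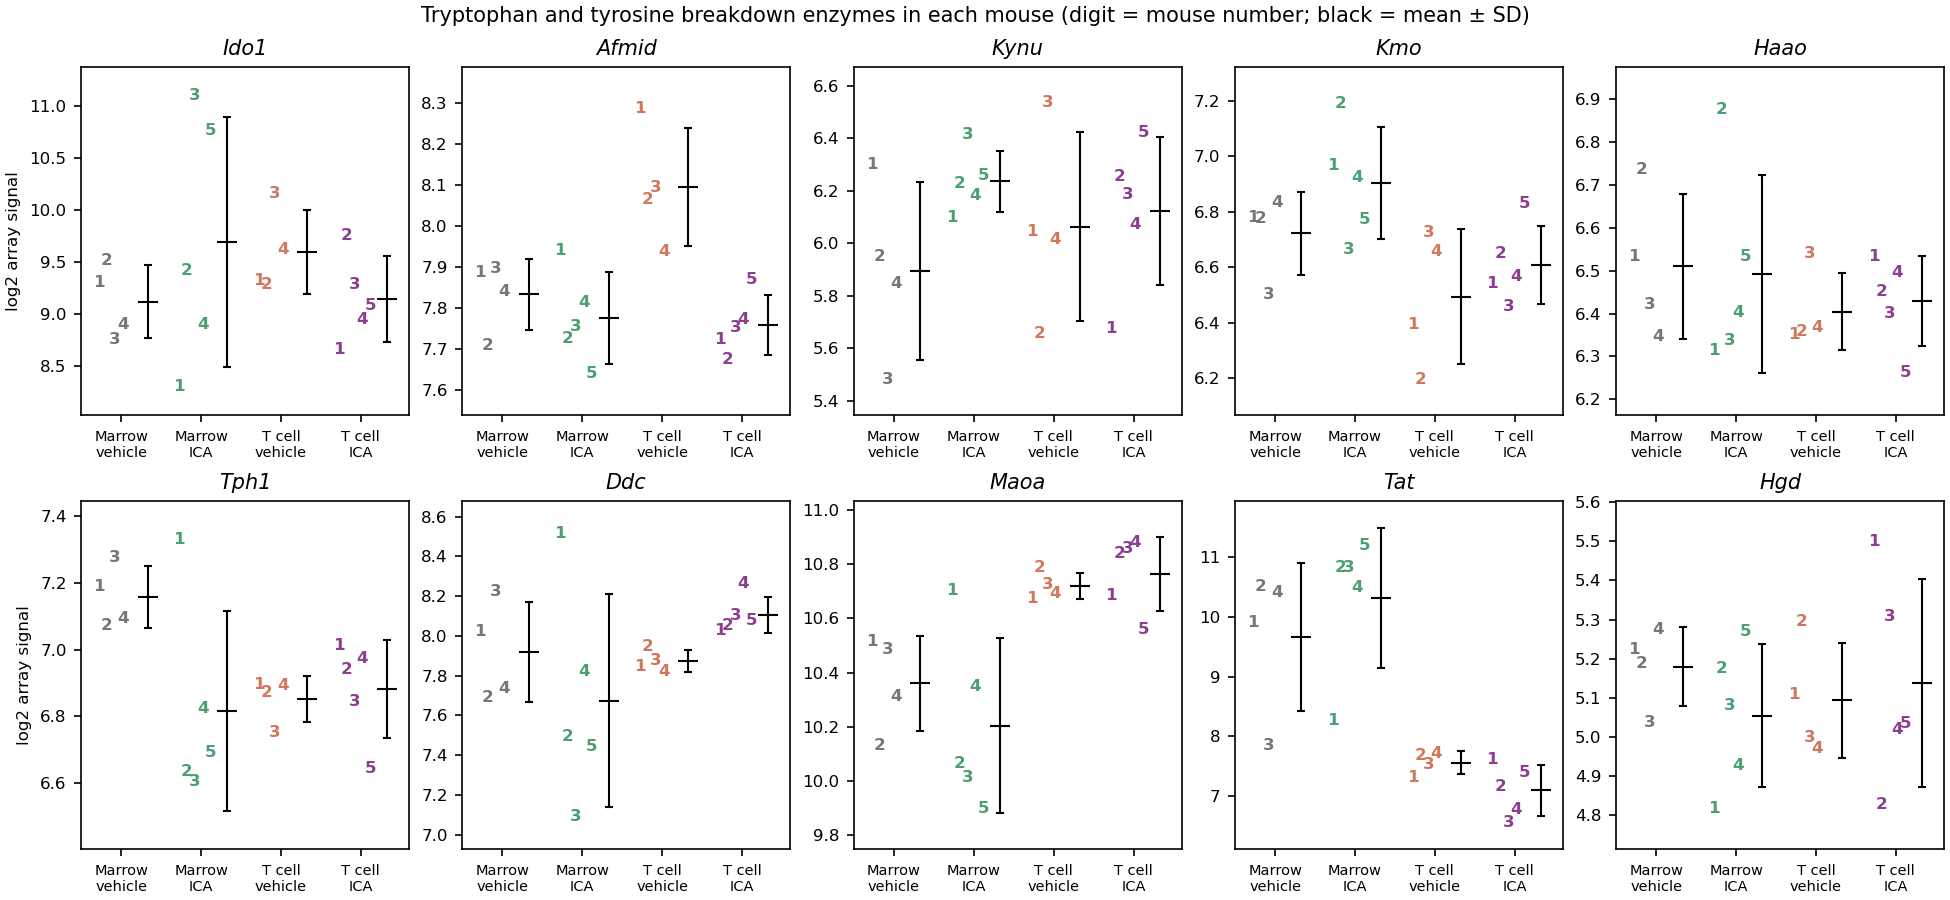
Log2 array signal (vertical axis, a separate scale for each gene) of the 10 enzymes in the 4 groups; each digit is 1 mouse and the black bar is the mean ± SD. Tat is high in 3 of the 4 vehicle and 4 of the 5 ICA marrow-only mice and low in all T cell mice, and Maoa is 10.56 or higher in every T cell mouse.

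Tat, tyrosine aminotransferase, showed the biggest fall of any measured gene in the ICA arm. The promoter window of the gene is shown because the difference was so large in both arms. It runs from 250 bases before to 50 bases after the annotated start, on the plus strand of chr8:109990186-109990485 in RefSeq's GRCm38.p6, and capitals mark 3 CCAAT boxes found by script on either strand.
Tat: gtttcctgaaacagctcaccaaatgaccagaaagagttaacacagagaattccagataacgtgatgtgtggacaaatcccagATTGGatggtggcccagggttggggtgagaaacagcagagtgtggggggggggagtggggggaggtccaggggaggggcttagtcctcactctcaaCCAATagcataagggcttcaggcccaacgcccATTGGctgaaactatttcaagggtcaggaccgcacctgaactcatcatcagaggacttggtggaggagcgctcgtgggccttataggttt
At least 1 CCAAT box is present in 37.4% of 32851 such windows, so its presence is ordinary. None of the other motifs searched occurs in the window: GGGCGG (GC box), CACGTG (the E-box of clock factors), TTATGTAA (D-box), the glucocorticoid response element or TTCNNNGAA (gamma-activated site). The glucocorticoid response element is present in 0.222% of all windows, so its absence is ordinary. Sequence outside the window was not searched, so whether Tat has such an element elsewhere cannot be told.

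In marrow-only mice on vehicle the log2 level of Tat was 9.91, 10.51, 7.84 and 10.41 (mean 9.67 ± 1.24 SD, n = 4). In T cell mice on vehicle it was 7.31, 7.68, 7.53 and 7.71 (7.56 ± 0.19 SD, n = 4). Mouse 3 of the marrow-only group stood close to the T cell mice, but the groups did not overlap. Under vehicle 2 enzymes separated upwards and 2 downwards, as did 6.33% and 4.21% of all genes (10.5% in either direction). The log2 difference was -2.11 ± 0.53 (SE), a 4.32-fold lower level, with an adjusted p of 0.0483 by limma. This call was at the edge of the threshold. It held when mouse 3 of the marrow-only vehicle group, mouse 1 or 5 of the marrow-only ICA group or mouse 1 of the T cell ICA group was left out, and was lost when any of the other 14 mice was. The adjusted p was then 0.0505 to 0.164 and the log2 difference -2.16 to -1.83, against 0.00428 and -2.72 without mouse 3 of the marrow-only vehicle group.

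Under ICA the Tat levels were 8.26, 10.83, 10.83, 10.50 and 11.20 in marrow-only mice (10.32 ± 1.18 SD, n = 5). They were 7.60, 7.15, 6.55, 6.77 and 7.38 in T cell mice (7.09 ± 0.43 SD, n = 5). All 5 T cell mice again lay below all 5 marrow-only mice, a separation seen in 2.17% of genes (1.16% upwards, where 0 enzymes separated, and 3.33% in either direction). Here mouse 1 was the only marrow-only mouse below 10. The log2 difference was -3.23 ± 0.47 (SE), 9.39-fold lower, with an adjusted p of 0.000601 by limma. Over both arms it was -2.67 ± 0.35 (SE; 95% interval -3.41 to -1.93; adjusted p = 9.36e-05). The calls under ICA and over both arms held with each of the 18 mice left out. In order of level the groups ran marrow-only ICA, marrow-only vehicle, T cell vehicle, T cell ICA, and within an arm the 2 neighbouring groups overlapped and did not pass the test.

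**Figure D2:**
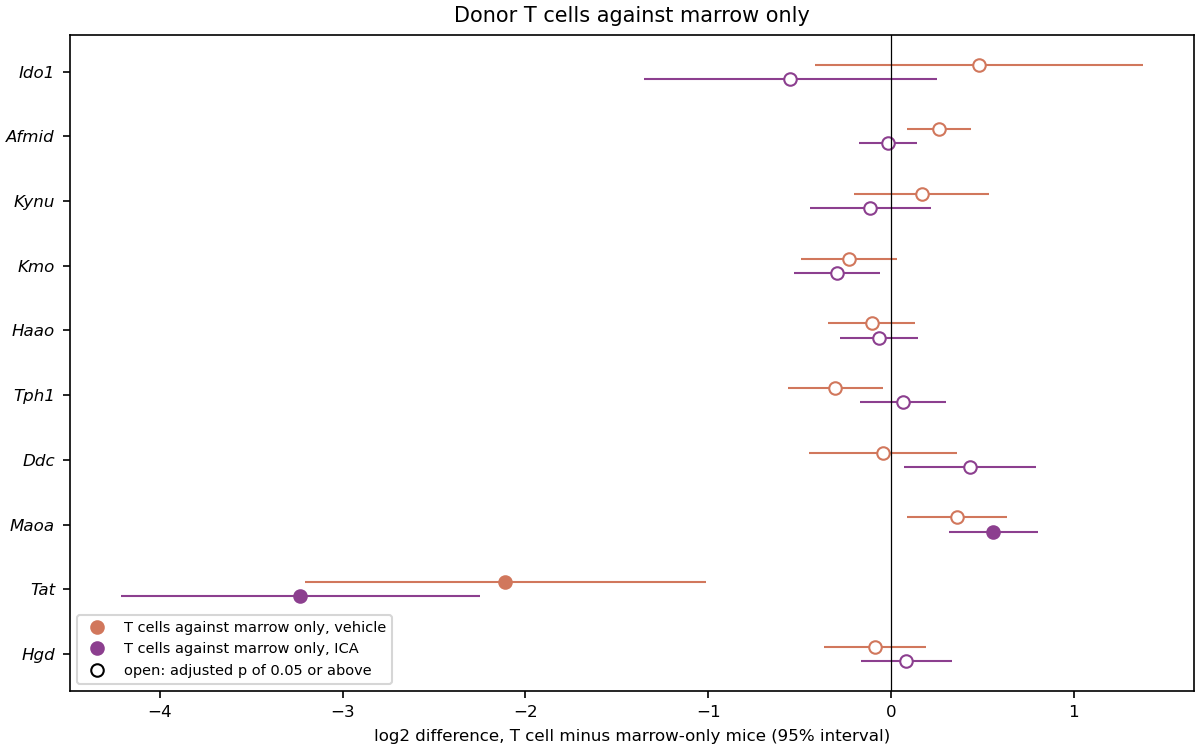
Log2 difference of T cell minus marrow-only mice (horizontal axis) with its 95% interval for each enzyme, under vehicle and under ICA; filled points have an adjusted p under 0.05. Tat lies far to the left in both arms (-2.11 and -3.23), and Maoa lies at 0.36 and 0.56 with only the ICA point filled.

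Cell types of the ileum also differed between the arms, and in bulk tissue fewer cells of a type and less RNA per cell cannot be told apart. Of 6 Paneth cell markers 2 fell under vehicle, 2 under ICA and 5 over both arms, and the list mean was 12.02 to 12.44 in marrow-only mice and 10.20 to 12.44 in T cell mice. Of 7 B and plasma cell markers 3 fell in each arm and 6 over both, with list means of 6.45 to 7.49 and 5.70 to 6.87. Smooth muscle markers rose in 7 of 7 cases under ICA and over both arms and in 0 of 7 under vehicle, with list means of 10.27 to 10.52 and 10.61 to 11.06. Enterocyte markers (0 of 10 called under vehicle, 1 risen under ICA) had list means of 9.76 to 11.30 and 10.49 to 10.97. Of 11 macrophage and dendritic cell markers 4 rose under vehicle, 2 rose and 1 fell under ICA, and 7 rose and 1 fell over both arms, with list means of 7.79 to 8.56 and 8.05 to 8.60. Of all genes, 0.794% rose and 0.681% fell under vehicle, 1.05% and 2.07% under ICA, and 3.58% and 3.62% over both arms. The part of these cell types in the enzyme differences was not tested.

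The genes whose levels most resembled those of Tat over the 18 arrays were Fut2, Chst4 and Prss27. Fut2 adds fucose to the glycans of the gut epithelium, Chst4 is a sulfotransferase of carbohydrate side chains and Prss27 is a serine protease. Pearson's r with Tat was 0.97 for each, and 0.96, 0.92 and 0.89 after the group means were removed; they were picked as the highest of all genes, the points share group structure, and the values are a description. Their per-mouse levels had the same low marrow-only mice. Fut2 was 7.74 in marrow-only vehicle mouse 3 and 7.62 in marrow-only ICA mouse 1, and 9.34 to 11.38 in the other 7 marrow-only mice. In the T cell arm it was 6.61 to 7.91. Its log2 difference was -1.55 ± 0.59 (SE) under vehicle (adjusted p = 0.232, and 0.0251 without marrow-only ICA mouse 1) and -2.95 ± 0.53 under ICA (adjusted p = 0.00316). The vehicle difference of Fut2 also passed in a fit of these groups alone (adjusted p = 0.0456). Without the same mouse, Fut2 was higher on ICA than on vehicle in marrow-only mice (1.72 on the log2 scale, adjusted p = 0.0409). For Chst4 the log2 difference was -1.28 under vehicle (adjusted p = 0.0497) and -1.99 under ICA (adjusted p = 0.00058), and for Prss27 -1.16 (adjusted p = 0.0281) and -1.78 (adjusted p = 0.000285). The vehicle call of Chst4, like that of Tat, was lost in 14 of the 18 omissions of 1 mouse, and that of Prss27 in 6 (marrow-only mice 1, 2 and 4 and T cell mice 2, 3 and 4, all on vehicle).

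**Figure D3:**
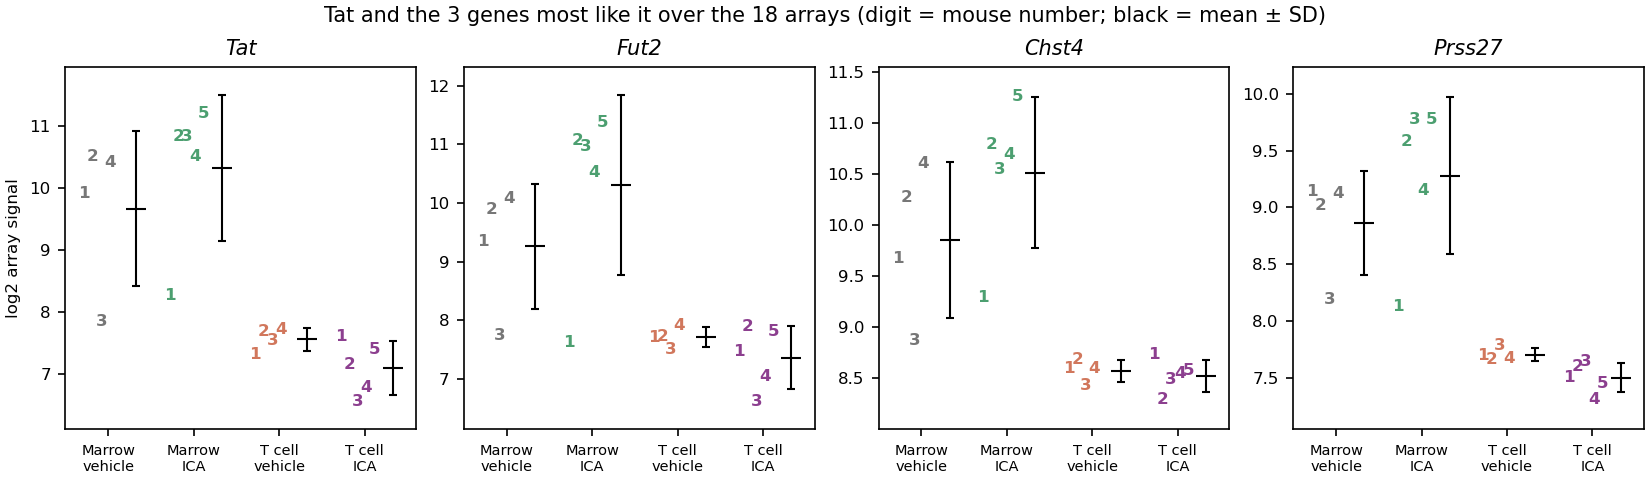
Log2 array signal (vertical axis) of Tat and of Fut2, Chst4 and Prss27 in the 4 groups; each digit is 1 mouse and the black bar is the mean ± SD. Marrow-only vehicle mouse 3 and marrow-only ICA mouse 1 are the lowest mice of their groups in all 4 panels.

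The next steps of tyrosine breakdown moved less. Hpd, which converts the product of Tat to homogentisate, was 8.75 to 9.04 in marrow-only vehicle mice and 8.63 to 8.99 in marrow-only ICA mice. It was 8.93, 7.97, 8.18 and 8.48 in T cell vehicle mice and 8.53, 8.05, 8.02, 8.56 and 8.53 in T cell ICA mice. T cell vehicle mouse 1 was as high as the marrow-only mice, and the other 8 T cell mice were below all of them. Hpd fell by 0.46 over both arms (SE 0.11, adjusted p = 0.0122 by limma). Without T cell vehicle mouse 1 it also passed under vehicle alone (-0.66, adjusted p = 0.0251) and under ICA alone (-0.45, adjusted p = 0.0475). Hgd, homogentisate dioxygenase, lay between 4.82 and 5.50 in all 18 mice, with log2 differences of -0.09 ± 0.13 and 0.08 ± 0.12 (SE) in the vehicle and ICA arms. The 95% interval over both arms ran from -0.19 to 0.19, so a change in signal of the size seen for Hpd lay outside it. The Hgd signal was above the median of all values (6.87) in 0 of the 18 arrays. Whether it stood above background was not tested, so the interval does not settle whether Hgd RNA changed.

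Of 14 other phenylalanine and tyrosine genes measured, 2 rose and 3 fell over both arms, where 3.58% of all genes rose and 3.62% fell. None of the 14 passed under vehicle or ICA alone, where 1.47% and 3.12% of all genes did. Hpd was 1 of the falls. The other 4 genes, grouped here after their calls were seen, act in the metabolism of tetrahydrobiopterin, the cofactor of the aromatic amino acid hydroxylases, including Tph1. Gch1 and Pts, which act in its synthesis, fell by 0.38 (SE 0.11, adjusted p = 0.037) and by 0.20 (SE 0.05, adjusted p = 0.0174) on the log2 scale. Spr, the other synthesis enzyme, was not called (0.12, SE 0.07, adjusted p = 0.425). Qdpr and Pcbd1, which regenerate the cofactor, rose by 0.25 (SE 0.06, adjusted p = 0.0181) and 0.16 (SE 0.05, adjusted p = 0.0442). Gch1 was 7.55 to 8.49 in marrow-only mice and 7.27 to 8.01 in T cell mice, and Pts was 8.48 to 8.75 and 8.26 to 8.60. Qdpr was 8.38 to 8.50 in T cell vehicle mice, above all other mice, while T cell ICA mice at 8.05 to 8.25 overlapped the marrow-only range of 7.80 to 8.29. The Pcbd1 call held in 3 of the 18 omissions of 1 mouse (without marrow-only ICA mouse 1 or 3 or T cell ICA mouse 1) and the Gch1 call in 6 (without marrow-only ICA mouse 1 or 2, marrow-only vehicle mouse 3, T cell ICA mouse 5 or T cell vehicle mouse 2 or 3). That of Qdpr was lost only without marrow-only vehicle mouse 4 (adjusted p = 0.0504), and that of Pts in none. Without marrow-only ICA mouse 1, Qdpr passed under vehicle (0.35, adjusted p = 0.0328; 0.0647 with it) and Gch1 under ICA (-0.55, adjusted p = 0.0173; 0.115 with it). Qdpr also passed under vehicle without marrow-only vehicle mouse 3 (adjusted p = 0.0415), and Gch1 under ICA without T cell ICA mouse 5 (adjusted p = 0.0432), and Pts under ICA without T cell ICA mouse 4 (adjusted p = 0.0299).

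**Figure D4:**
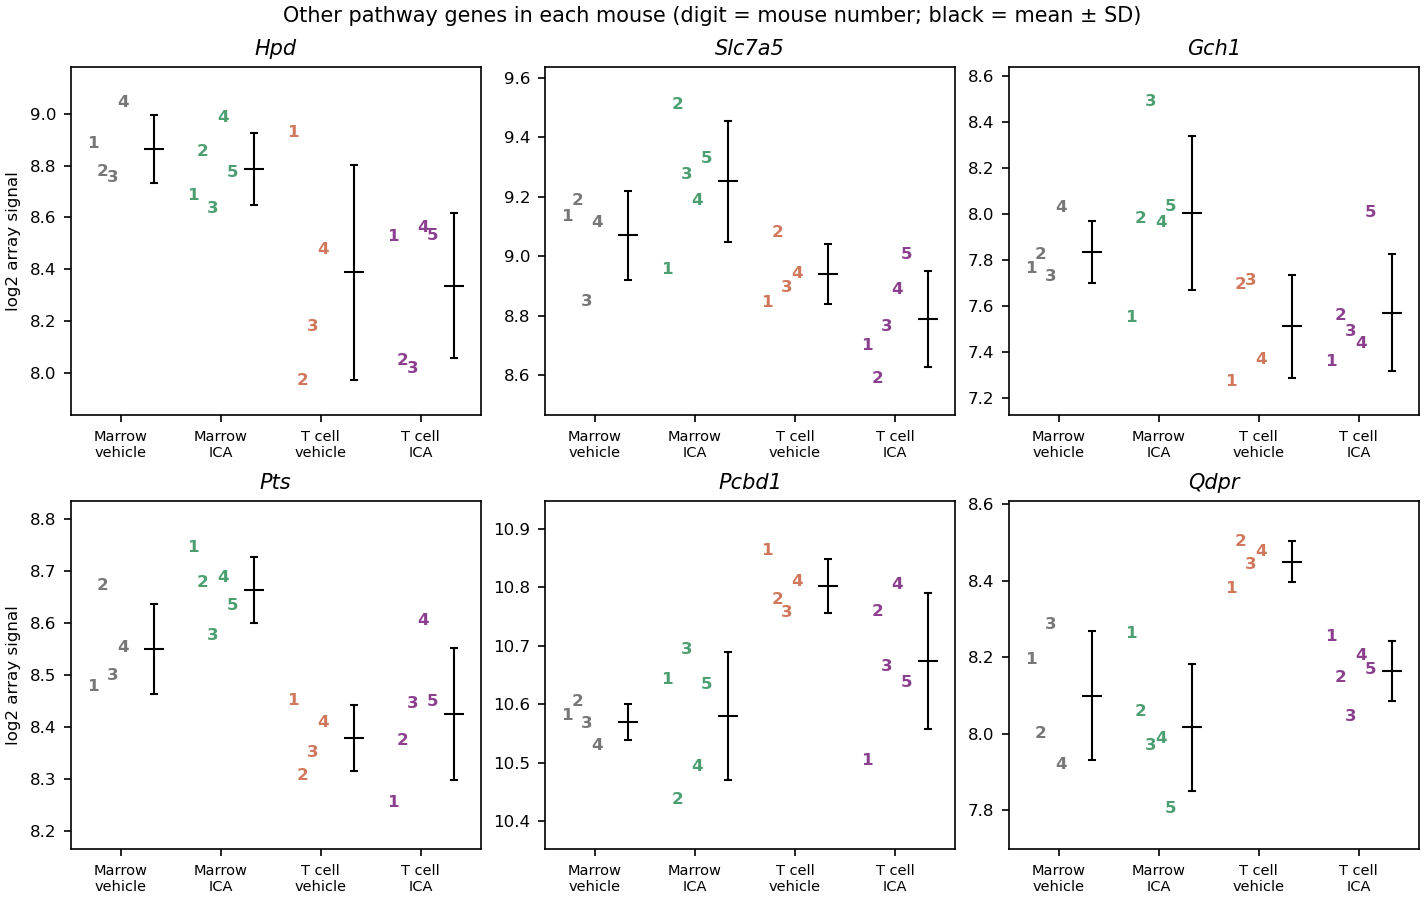
Log2 array signal (vertical axis, a separate scale for each gene) of the 6 other pathway genes that were called between graft arms; each digit is 1 mouse and the black bar is the mean ± SD. Hpd, Slc7a5, Gch1 and Pts are lower, and Pcbd1 and Qdpr higher, on average in the T cell groups, and mice of the 2 arms overlap in every panel.

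Maoa, monoamine oxidase A, was higher in the mice given T cells. Its promoter window is shown because it was the only enzyme of the 10 to rise; it lies on the plus strand of chrX:16619448-16619747 in RefSeq's GRCm38.p6, and capitals mark 2 GC boxes, read here on the opposite strand.
Maoa: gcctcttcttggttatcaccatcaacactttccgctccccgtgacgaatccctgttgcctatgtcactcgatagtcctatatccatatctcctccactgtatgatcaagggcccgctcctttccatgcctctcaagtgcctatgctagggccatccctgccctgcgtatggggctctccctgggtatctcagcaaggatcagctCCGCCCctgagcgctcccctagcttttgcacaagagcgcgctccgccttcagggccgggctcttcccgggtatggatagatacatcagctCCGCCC
A GC box is present in 35.7% of all windows. No CACGTG (7.15% of windows), TTATGTAA (0.938%), glucocorticoid response element (0.222%) or TTCNNNGAA (8.3%) occurs in the windows of the 8 enzymes that have one in the table, all but Ido1 and Kynu. Sequence outside these windows was not searched.

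The log2 level of Maoa was 10.51, 10.13, 10.48 and 10.31 in marrow-only vehicle mice (10.36 ± 0.18 SD, n = 4). It was 10.68, 10.79, 10.73 and 10.69 in T cell vehicle mice (10.72 ± 0.05 SD, n = 4), all above the marrow-only mice. The log2 difference of 0.36 ± 0.13 (SE) did not pass when all 18 arrays shared a spread (adjusted p = 0.2), but did when only the 8 mice of these groups were fitted (adjusted p = 0.0308).
Under ICA the levels were 10.70, 10.06, 10.01, 10.35 and 9.90 in marrow-only mice (10.20 ± 0.32 SD, n = 5) and 10.68, 10.84, 10.86, 10.88 and 10.56 in T cell mice (10.76 ± 0.14 SD, n = 5). Marrow-only mouse 1 fell within the T cell range and the other 4 lay below it. T cell mice were higher by 0.56 ± 0.12 (SE, log2), 1.47-fold higher (adjusted p = 0.00992; 0.0522 in a fit of these groups alone), and over both arms 0.46 ± 0.09 (SE; adjusted p = 0.00244 by limma). The ICA-arm and both-arm calls held with each of the 18 mice left out. The smooth muscle list means given above did not overlap between graft arms. Marrow-only ICA mouse 1, the highest of its group for Maoa, also had the highest enterocyte list mean (11.30, against 9.76 to 10.48 in its group mates). The part of smooth muscle or of enterocytes in the Maoa difference was not tested.
The genes closest to Maoa over the arrays were Glud1 (glutamate dehydrogenase), Tmem86a and Acer1 (a ceramidase), with r of 0.93 each over 18 arrays and 0.82 to 0.88 after the group means were removed. Maob, the other monoamine oxidase, differed by 0.66 ± 0.23 (SE) over both arms, and Slc6a4, the serotonin transporter, by 0.42 ± 0.13; neither passed (adjusted p = 0.0914 and 0.0585).

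Tph1 and Ddc, which make serotonin, were not called between graft arms. Tph1 was 7.19, 7.07, 7.27 and 7.09 in marrow-only vehicle mice and 6.90, 6.87, 6.75 and 6.89 in T cell vehicle mice. Every T cell mouse was below every marrow-only mouse on vehicle, with a log2 difference of -0.30 ± 0.12 (SE) and an adjusted p of 0.278. Under ICA the groups overlapped and the difference was 0.07 ± 0.11 (SE). Beside this, 10 of 11 enteroendocrine markers had negative vehicle differences (median -0.30, 0 called), and 2 of 8 mast cell markers fell under vehicle. Under ICA 6 of 11 enteroendocrine markers had positive differences (median 0.008) and 1 fell. Of the 8 mast cell markers 7 were positive under ICA (median 0.24, 0 called). Over both arms 1 enteroendocrine marker fell and 0 mast cell markers were called. The part of either cell type in the Tph1 difference between graft arms was not tested. The genes nearest to Tph1 were Bend7, Pcsk1 (a prohormone convertase of endocrine cells) and Zswim5, at r of 0.86 to 0.88 over 18 arrays.

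Ddc, which also decarboxylates DOPA, was 8.02, 7.69, 8.22 and 7.73 in marrow-only vehicle mice and 7.85, 7.95, 7.88 and 7.82 in T cell vehicle mice. Under ICA it was 8.52, 7.50, 7.09, 7.82 and 7.44 in marrow-only mice and 8.03, 8.05, 8.10, 8.26 and 8.08 in T cell mice. Marrow-only ICA mouse 1 was the highest of all 18 mice and its 4 group mates were below every T cell ICA mouse. The ICA-arm difference was 0.43 ± 0.17 (SE) with an adjusted p of 0.202 by limma. Without mouse 1 it was 0.64 and passed (adjusted p = 0.00255), and over both arms it was then 0.30 (adjusted p = 0.0354) in place of 0.19. No other omission of 1 mouse gave these calls. Among the other alternatives only leaving out 4 arrays did, and mouse 1 was among them. The enterocyte list mean of that mouse was 11.30, against 9.76 to 10.48 in its group mates. Arrb1, C1qtnf12 and Cnksr3 were nearest to Ddc (r of 0.92 to 0.93 over 18 arrays).

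On the kynurenine route no enzyme was called in any comparison. Ido1, its entry step, was 9.30, 9.51, 8.75 and 8.90 in marrow-only vehicle mice and 9.32, 9.28, 10.16 and 9.62 in T cell vehicle mice. Under ICA it was 8.30, 9.42, 11.10, 8.89 and 10.76 in marrow-only mice and 8.66, 9.76, 9.28, 8.94 and 9.08 in T cell mice. The highest 2 mice of the whole series were thus marrow-only ICA mice 3 and 5, and mouse 1 of the same group was the lowest. The log2 difference of T cell from marrow-only mice was 0.48 ± 0.43 (SE) under vehicle and -0.55 ± 0.38 under ICA (adjusted p = 0.716 and 0.524 by limma), with 95% intervals of -0.41 to 1.38 and -1.35 to 0.25.

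The interferon gamma response list stood highest in the same marrow-only ICA mice. Their mean over 16 genes was 8.82, 9.44, 9.99, 8.81 and 9.69 in mice 1 to 5, highest in mice 3, 5 and 2, as for Ido1. In the other 3 groups it was 8.85 to 9.20, 9.11 to 9.54 and 8.85 to 9.49, in the order marrow-only vehicle, T cell vehicle and T cell ICA. None of the 16 passed in any of the 7 comparisons. The genes closest to Ido1 were Gm4841, BC023105 and Ubash3b (r of 0.92 to 0.93 over 18 arrays).

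Afmid, the formamidase that releases kynurenine, was 7.89, 7.71, 7.90 and 7.84 in marrow-only vehicle mice and 8.28, 8.06, 8.09 and 7.94 in T cell vehicle mice, with no overlap. These groups differed by 0.26 ± 0.08 (SE, log2; adjusted p = 0.133). Under ICA it was -0.02 ± 0.08, and all marrow-only and T cell mice lay between 7.64 and 7.94. Slc16a5, Cep83os and Xkrx were nearest to Afmid, at r of 0.82 to 0.83 over 18 arrays.

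Kmo, the hydroxylase of kynurenine, was 6.78, 6.78, 6.50 and 6.83 in marrow-only vehicle mice and 6.40, 6.20, 6.73 and 6.66 in T cell vehicle mice. Under ICA it was 6.97, 7.19, 6.66, 6.92 and 6.77 in marrow-only mice and 6.54, 6.65, 6.46, 6.57 and 6.83 in T cell mice. The groups overlapped in both arms; over both arms the log2 difference was -0.26 ± 0.08 (SE) with an adjusted p of 0.0664. It passed in 4 of the 18 omissions, those of mouse 3 of the marrow-only ICA, marrow-only vehicle or T cell vehicle group and of T cell ICA mouse 5 (adjusted p from 0.0413 to 0.0488). The genes nearest to Kmo were Fcmr (an Fc receptor for IgM), 4930480G23Rik and Bank1 (a B cell scaffold protein), at r of 0.84 to 0.86 over 18 arrays. The B cell list means given above were lower on average in T cell mice, but the arms overlapped. Marrow-only ICA mouse 3 was at 6.45 and T cell ICA mouse 1 at 6.87. The part of B cells in the Kmo difference was not tested.

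Kynu, kynureninase, ranged from 5.48 to 6.54 over the 18 mice, and Haao, which makes the precursor of quinolinate, from 6.26 to 6.88. For Kynu the log2 differences of T cell from marrow-only mice were 0.17 ± 0.18 and -0.11 ± 0.16 (SE), and for Haao -0.11 ± 0.11 and -0.06 ± 0.10, in the vehicle and ICA arms. Groups overlapped in each case. The highest Haao value, 6.88 in marrow-only ICA mouse 2, and the lowest, 6.26 in T cell ICA mouse 5, both came from mice on ICA. Kcmf1, 4930413F20Rik and Uxs1 were nearest to Kynu, Lyzl4os, Zbed5 and Bcl11a to Haao, and Olfr969, Olfr728 and Sult1c1 to Hgd, at r of 0.80 to 0.83.

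Among 18 other tryptophan genes measured, 1 fell and 0 rose under ICA and over both arms, and 0 passed under vehicle. Of all genes, 3.12% were called in either direction under ICA, 7.21% over both arms and 1.47% under vehicle. The fall was in Slc7a5, a subunit of the transporter that carries tryptophan and tyrosine across membranes. It was 8.96, 9.51, 9.28, 9.19 and 9.33 in marrow-only ICA mice and 8.70, 8.59, 8.76 and 8.89 in T cell ICA mice 1 to 4. T cell ICA mouse 5 lay just above marrow-only mouse 1, the only overlap. The log2 difference was -0.46 ± 0.10 (SE; adjusted p = 0.0103; 0.0507 in a fit of these groups alone) and over both arms -0.30 ± 0.07 (adjusted p = 0.0164). Under vehicle it was -0.13 ± 0.11 (adjusted p = 0.695). Of 10 NAD genes, 0 passed in any of the 7 comparisons.

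The glucocorticoid list held response genes, the receptor Nr3c1 and the steroid enzymes Cyp11a1, Cyp11b1 and Hsd11b1. Of its 11 genes, 3 rose (0.794% of all genes did), 0 fell (0.681%) and 8 did not pass under vehicle. In that arm 7 of the 11 differences were positive (median 0.05, all genes 0.01). The genes that rose were Fkbp5, by 0.66 (SE 0.12, adjusted p = 0.00882 by limma), Per1, by 0.80 (SE 0.18, adjusted p = 0.0251) and Hsd11b1, by 0.65 (SE 0.14, adjusted p = 0.0217). Fkbp5, a chaperone partner of the receptor, was 7.24 to 7.55 in marrow-only and 7.83 to 8.14 in T cell mice on vehicle. Under ICA 1 of the 11 rose (1.05% of all genes did) and 6 of the 11 differences were positive. The rise was in Hsd11b1, the enzyme that regenerates active glucocorticoid (0.47, SE 0.13, adjusted p = 0.0461 by limma). None of the response genes on the list was called in that arm. Fkbp5 and Per1 were not called under ICA. Their means in marrow-only and T cell mice on ICA were 7.38 and 7.56 for Fkbp5, and 9.08 and 8.77 for Per1. Over both arms 2 of the 11 rose (3.58% of all genes did), 0 fell (3.62%) and 6 were positive. Leaving out 1 mouse ended the vehicle call of Per1 in 5 of 18 cases (marrow-only mice 1 and 4 and T cell mice 1, 2 and 4 on vehicle) and of Hsd11b1 in 5 (marrow-only mice 1, 3 and 4 and T cell mice 3 and 4 on vehicle). The ICA-arm call of Hsd11b1 held only without mouse 2 of the marrow-only ICA group, mouse 1 of the T cell ICA group or mouse 2 or 4 of the T cell vehicle group. Without marrow-only ICA mouse 1 it was lost (log2 difference 0.43, adjusted p = 0.0632 by limma).

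None of the 10 enzymes passed the test for ICA against vehicle. In T cell mice 0 of 10 were called and 0.0135% of all genes were; in marrow-only mice 0 of 10 and 0.00451%; in the mean over grafts 0 of 10 and 0.0135%. In marrow-only mice 0 enzymes separated without overlap, as did 1.35% of all genes upwards and 0.825% downwards (2.18% in either direction). In the interaction, the ICA effect with T cells minus that without, 0 of 10 enzymes and 0% of all genes passed. At an unadjusted p under 0.05 the enzymes numbered 1, 1, 1 and 2 in these 4 comparisons, against 6.89%, 7.52%, 7.73% and 6.68% of all genes. The comparisons share mice, so an enzyme's values in them are not independent of each other.

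**Figure D5:**
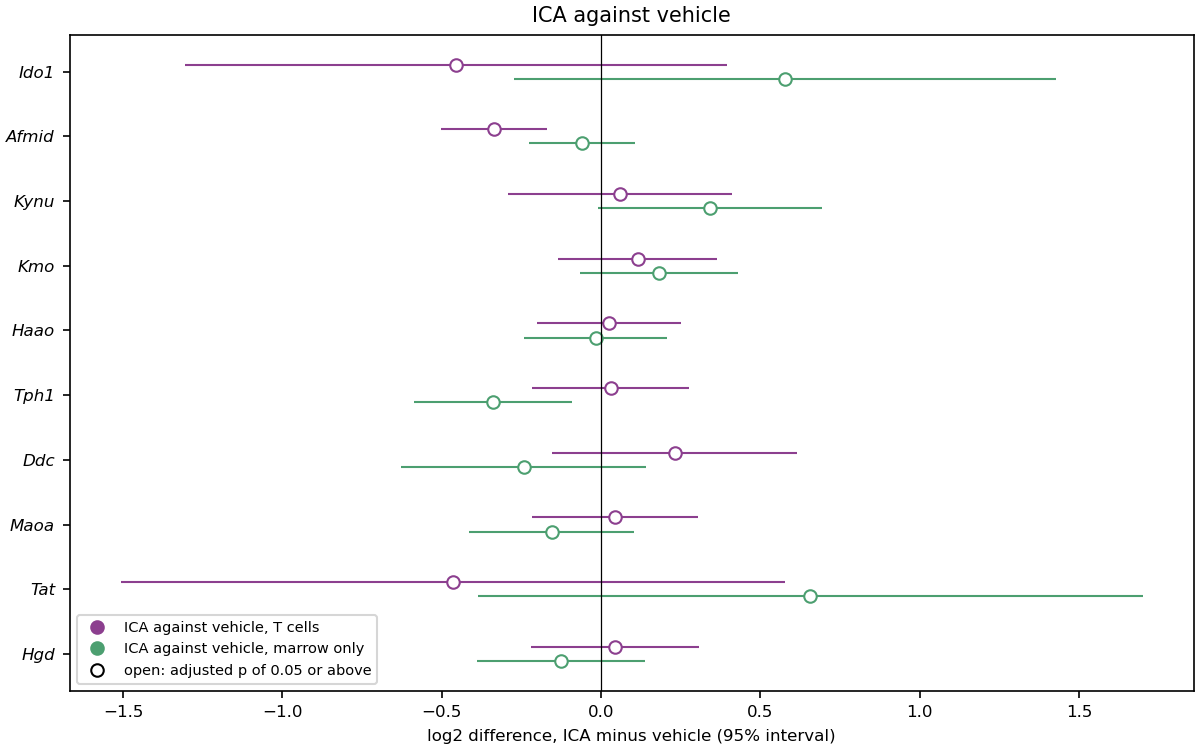
Log2 difference of ICA minus vehicle (horizontal axis) with its 95% interval for each enzyme, in T cell mice and in marrow-only mice; open points have an adjusted p of 0.05 or above, and all 20 are open. Intervals are widest for Tat and Ido1, and the intervals of Afmid in T cell mice and of Tph1 in marrow-only mice do not include 0.

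Afmid came nearest to a call in T cell mice. On ICA it was 7.72, 7.67, 7.75, 7.77 and 7.87, below all 4 vehicle mice, whose lowest was 7.94; 1 enzyme separated downwards and 1, Ddc, upwards, as did 1.78% and 1.11% of all genes (2.89% in either direction). By limma Afmid differed by -0.34 ± 0.08 (SE, log2), with an adjusted p of 0.256. In marrow-only mice it was -0.06 ± 0.08, and the interaction was -0.28 ± 0.11 (adjusted p = 0.724). Levels ran from T cell vehicle (8.10 ± 0.14 SD) down to marrow-only vehicle (7.83 ± 0.09), marrow-only ICA (7.77 ± 0.11) and T cell ICA (7.76 ± 0.07), and the last 3 overlapped. T cell vehicle also overlapped marrow-only ICA slightly, by T cell vehicle mouse 4 (7.937) and marrow-only ICA mouse 1 (7.941). Ddc was the other enzyme to separate by treatment in T cell mice, with 8.03 to 8.26 on ICA above 7.82 to 7.95 on vehicle (log2 difference 0.23 ± 0.18 SE, adjusted p = 0.871).

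Tph1 had the lowest p in marrow-only mice. On ICA it was 7.33, 6.63, 6.61, 6.82 and 6.69, against 7.07 to 7.27 on vehicle; mouse 1 lay above all vehicle mice and the other 4 below them. ICA and vehicle differed by -0.34 ± 0.12 (SE, log2; adjusted p = 0.615 by limma). The difference passed only in the fit without mouse 1 (-0.47, adjusted p = 0.0263). That mouse lay opposite to its group mates, so leaving it out had to enlarge the difference. The enteroendocrine list mean was 7.93 to 8.04 on vehicle and 7.87 to 8.00 on ICA in these mice. Of 8 mast cell markers 7 were lower on ICA (median -0.22, 0 called); the list mean was 5.98 to 6.22 on vehicle and 5.51, 5.74, 6.31, 5.41 and 5.82 on ICA. The part of either cell type in the Tph1 difference was not tested. In T cell mice the difference was 0.03 ± 0.12, and the interaction was 0.37 ± 0.17 (SE, adjusted p = 0.735).

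For Tat and Ido1 the intervals were too wide to settle an ICA effect. The log2 difference of Tat was -0.47 ± 0.50 (SE; 95% interval -1.51 to 0.58) in T cell mice and 0.66 ± 0.50 (-0.39 to 1.70) in marrow-only mice. The interaction for Tat was -1.12 ± 0.71 (adjusted p = 0.803). For Ido1 the differences were -0.45 ± 0.41 and 0.58 ± 0.41, with an interaction of -1.03 ± 0.58 (adjusted p = 0.78). Interferon gamma response genes were all positive, 16 of 16, for ICA in marrow-only mice (median 0.30, all genes 0.01), with 0 called, and 8 of 16 in T cell mice. The 16 genes were measured in the same mice and are not independent. Their mean was 9.44, 9.99 and 9.69 in marrow-only ICA mice 2, 3 and 5. In mice 1 and 4 it was 8.82 and 8.81, below the vehicle mice (8.85 to 9.20). Kynu differed by 0.34 ± 0.17 in marrow-only mice and 0.06 ± 0.17 in T cell mice. For Kmo, Haao, Maoa and Hgd every ICA difference was at most 0.18 in size within a graft arm.

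Among the other pathway genes, ICA gave 0 calls in all 4 comparisons with every mouse included. Slc16a10, a transporter of aromatic amino acids, had a mean ICA difference of -0.61 ± 0.15 (SE; unadjusted p = 0.000724, adjusted p = 0.314). Without marrow-only ICA mouse 1 it passed, both in this mean (-0.73, adjusted p = 0.00625) and in marrow-only mice (-0.85, adjusted p = 0.0263; with that mouse -0.61 and 0.617). It was 8.48 to 9.14 in T cell ICA mice and 8.88 to 9.53 in T cell vehicle mice, with mouse 2 of each overlapping. In marrow-only mice it was 9.51 in ICA mouse 1 and 7.92 to 8.64 in the other 4, against 9.06 to 9.36 on vehicle. Of the NAD genes, Sirt1 (a NAD-dependent deacetylase) differed by -0.18 ± 0.07 and Nmnat1 (NAD synthesis in the nucleus) by 0.16 ± 0.06 over both grafts (adjusted p = 0.496 and 0.516). Of the interferon genes, Psmb8, an immunoproteasome subunit, differed by 0.40 ± 0.13 for ICA in marrow-only mice (adjusted p = 0.598). Ciita, the activator of MHC class II genes, differed by 0.45 ± 0.16 for T cells under vehicle (adjusted p = 0.191), where its groups did not overlap.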

How the data were processed

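RNA of 18 ilea was measured on Affymetrix gene arrays, 1 per mouse, and the authors' deposited table was read as log2 values, since its columns span that range. Partek, GenomeStudio and RMA are listed, without versions, in the submitters' processing notes; the log base, filters and background step are not stated in any of the labels used. The number of arrays limits precision. A gene was tested on its probe set with 1 symbol and the highest mean (22180 genes from 41345 probe sets). limma 3.58.1 in R 4.3.3 fitted a mean per group to all 18 arrays (14 residual and 6.1 prior degrees of freedom, variance trend), for 7 two-sided comparisons adjusted by Benjamini-Hochberg over all genes and called at 0.05. The script was tested on simulated data. The enzymes, lists and comparisons were chosen with earlier results of these data known. All 10 enzymes are named; other pathway genes are named if called or among the 2 smallest p of their list, and the 3 most correlated genes per enzyme. Hpd, Slc7a5 and others outside the 10 come from these lists; Maob, Slc6a4 and Spr were added after their values were seen. Promoter windows are RefSeq's (GRCm38.p6). Same-numbered mice were not treated as pairs, and the labels do not say whether the numbers pair them. Alternatives tried were fits of only the groups compared, a replicate block, 1 mouse left out, quantile normalization, centring, a low filter, all probe sets averaged, no trend, array weights and 4 arrays left out.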

Additional observations from a re-analysis of the deposited data

Results flagged for a closer look

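In 3 of the 40 sets of enzyme and group, 1 mouse stood apart from its group mates by Dixon's test at the 95% level, which chance does in about 1 group in 20. Tat in marrow-only ICA mouse 1 was 8.26, and the nearest of the others was 10.50. Haao in T cell vehicle mouse 3 was 6.54, and the nearest was 6.37. Tph1 in T cell vehicle mouse 3 was 6.75, and the nearest was 6.87.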

How the results depend on the processing

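Over 27 alternatives, 18 of which left out 1 mouse, 1832 enzyme values were recomputed: 16 lost a call, 10 gained one and 0 called values reversed, while 76 values that were called in neither setting changed sign. Fitting only the groups compared called 2 enzymes and 824 genes for T cells under vehicle (1 and 327 in the shared fit) and 1 enzyme and 321 genes under ICA (2 and 693). It gave 49 genes for ICA in T cell mice (3) and 0 in marrow-only mice (1). Array weights gave 1074, 1049 and 2543 genes for T cells under vehicle, under ICA and over both (1599 in the shared fit), 13 for ICA in T cell mice and 5 in the mean over grafts (3). Quantile normalization, centring and the low filter each left 1 gene in that mean, and the filter gave 5 in T cell mice. Without the variance trend the vehicle call of Tat was lost (adjusted p = 0.0661), leaving 0 enzymes. The 4 arrays least correlated with their groups (marrow-only vehicle 3, marrow-only ICA 1, T cell vehicle 2, T cell ICA 1), left out together as a choice made after seeing the data, gave 1509 genes for T cells under ICA with 3 enzymes, Ddc added, and 22, 13, 54 and 2 genes for ICA in T cell mice, in marrow-only mice, in the mean and in the interaction. With 1 mouse left out, called enzymes ranged from 0 to 1 for T cells under vehicle, 2 to 3 under ICA, 2 to 3 over both and 0 to 1 for ICA in marrow-only mice, and were 0 in the other comparisons. Called genes ranged from 94 to 515, 378 to 1373 and 1156 to 2001 for T cells under vehicle, ICA and both, and for ICA from 1 to 9 in T cell mice, 0 to 119 in marrow-only mice and 1 to 97 in the mean, and 0 to 2 in the interaction. The replicate block gave 1, 2 and 2 enzymes for T cells under vehicle, ICA and both, with 382, 685 and 1498 genes, and 0 genes for ICA in marrow-only mice; only 3 of 25 same-numbered pairs correlated over 0.1. The filter kept 11710 genes and 6 of the 10 enzymes, not Kynu, Kmo, Haao or Hgd. The cause of these changes was not tested. Signal over background was not measured here, so which enzymes lie near it was not tested.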
